A study of Mus musculus with 6 samples.

Results

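Lysosomal genes were followed in a mouse angiosarcoma line given a miR-497 mimic. The set held 42 genes out of the 55401 gene identifiers in the count table, chosen by name from what is known of the lysosome and found in the table through their mouse Ensembl identifiers. Earlier results of these data were known when the genes were chosen, so the shares called below may not be independent of that choice. The set comprised 22 enzymes and enzyme activators, 5 membrane proteins, 2 transcription factors with the autophagy receptor Sqstm1, and 12 subunits or partners of the vacuolar proton pump. ADC106, the line used, comes from an angiosarcoma, a cancer that arises in the endothelium. A first group of 3 libraries, of genotype WT, came from cells that received the mimic labelled NC. The second, also of 3 libraries and given in the labels as miR-497 overexpression, came from cells that received the miR-497 mimic, a short synthetic RNA duplex. Both mimics were used at 12.5 nM, and RNA was taken on day 3 after transfection. All 6 libraries are from 1 cell line, and the labels do not say whether the replicates were separate cultures, so p-values measure the spread between these libraries, which may be technical.

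Lysosomes are acidic compartments in which proteins, sugars, lipids and nucleic acids are broken down. Soluble hydrolases do the cutting, membrane proteins protect and equip the limiting membrane, and a proton pump of a membrane sector (V0) and a cytosolic sector (V1) keeps the lumen acidic. Many of these genes carry the letters CACGTG near their start sites, which the related transcription factors TFEB and TFE3 can bind. A microRNA acts mainly through its seed, bases 2 to 8, which pairs with sites in the 3' UTRs of messenger RNAs.

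Library totals ran from 25777676 to 36159499 counts. The share of counts from mitochondrially encoded genes was 2.03% to 2.15% in NC libraries and 2.94% to 3.77% in miR-497 libraries, so it moved with the mimic; its part in the results below was not tested. All 12 endothelial markers examined passed the filter on low counts, and 7 were called higher, 4 lower and 1 neither, with log2 fold changes from -0.52 to 1.03 and summed levels of 9969 to 10679 CPM with NC and 9647 to 10141 CPM with miR-497, where CPM is the count scaled to a common library total after TMM scaling of library sizes. Of 10 macrophage and leukocyte markers, whose cells are rich in lysosomes, 6 stayed under 0.5 CPM in every library, and the sum of all 10 was 10.6 to 12.3 CPM with NC and 9.52 to 10.0 CPM with miR-497. Itgam and Tyrobp were listed at 0 throughout. A listed 0 need not mean a lack of expression, as set out for Galns below, and its cause here was not tested. The 8 fibroblast markers summed to 270.3 to 287 CPM with NC and 435 to 523 CPM with miR-497, with 3 higher, 2 lower, 1 not past the threshold, 2 not tested, and Lum at 0. Log2 fold changes of the 6 tested fibroblast markers ran from -2.45 to 1.15, so they did not move as a block. The 14 listed interferon-stimulated genes were all lower, their sum going from 4119 to 4742 CPM down to 842 to 919.7 CPM. The part of these shifts in the lysosomal results was not tested. In RNA from bulk culture, fewer cells of a kind and less RNA per cell cannot be told apart.

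Of the 42 genes, 40 passed the filter on low counts and were tested among 14661 genes with edgeR's quasi-likelihood test, called at a Benjamini-Hochberg adjusted p under 0.05. With miR-497, 30 of the 40 rose, 4 fell and 6 did not pass. Over all tested genes, 23.8% were called higher and 26.0% lower, or 49.8% in either direction. A change of at least 1.5-fold was called for 14 higher members and 1 lower member, against 8.61% and 11.7% of all tested genes. The members had a median log2 fold change (miR-497 over NC) of 0.37, with the middle of the set between 0.14 and 0.69, where the 14661 genes together had -0.02, between -0.37 and 0.31.

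**Figure D1:**
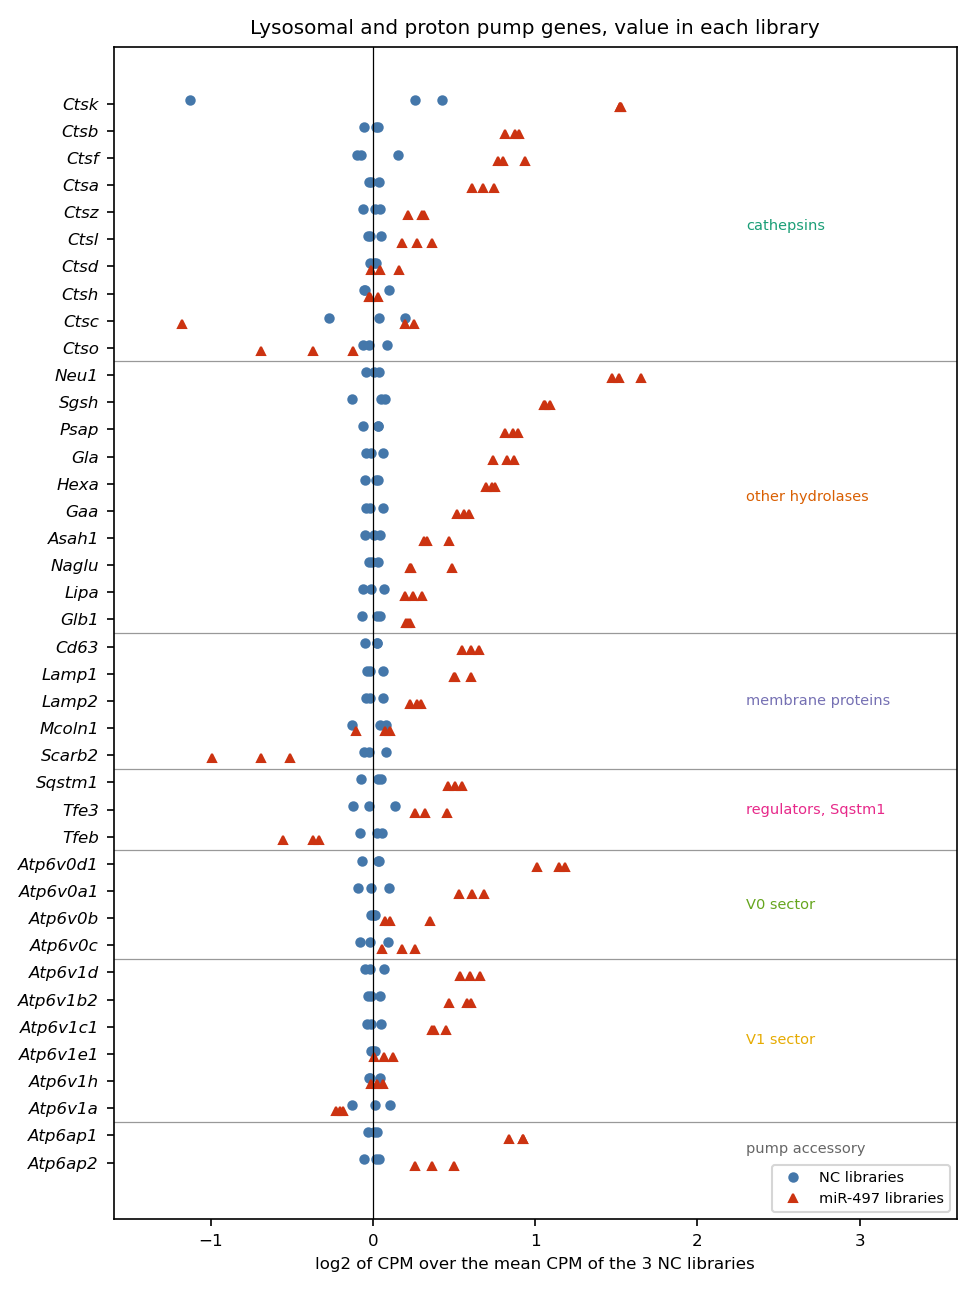
Each row is 1 of the 40 tested genes; the x axis is the log2 ratio of its CPM in a library to its mean CPM in the 3 NC libraries (circles NC, triangles miR-497), grouped by role and ordered by fold change. In 29 rows every triangle lies right of every circle, in 4 rows every triangle lies left, and in 7 rows the groups overlap.

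The 3 miR-497 libraries lay wholly above the 3 NC libraries for 29 members and wholly below for 4, as the plot of values by library shows. Among all tested genes 27.8% and 29.6% were separated in these directions, 57.4% together. Summed over all 42 genes, NC libraries held 8478, 8743 and 8743 CPM, and miR-497 libraries held 12370, 11699 and 12274 CPM. The summed level was thus 1.40 times higher with the mimic. Replicates had coefficients of variation over the tested members of at most 19.3% (Ctso with miR-497) in both groups except for the low-count genes Ctsk (47.6% with NC) and Ctsc (45.4% with miR-497).

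**Figure D2:**
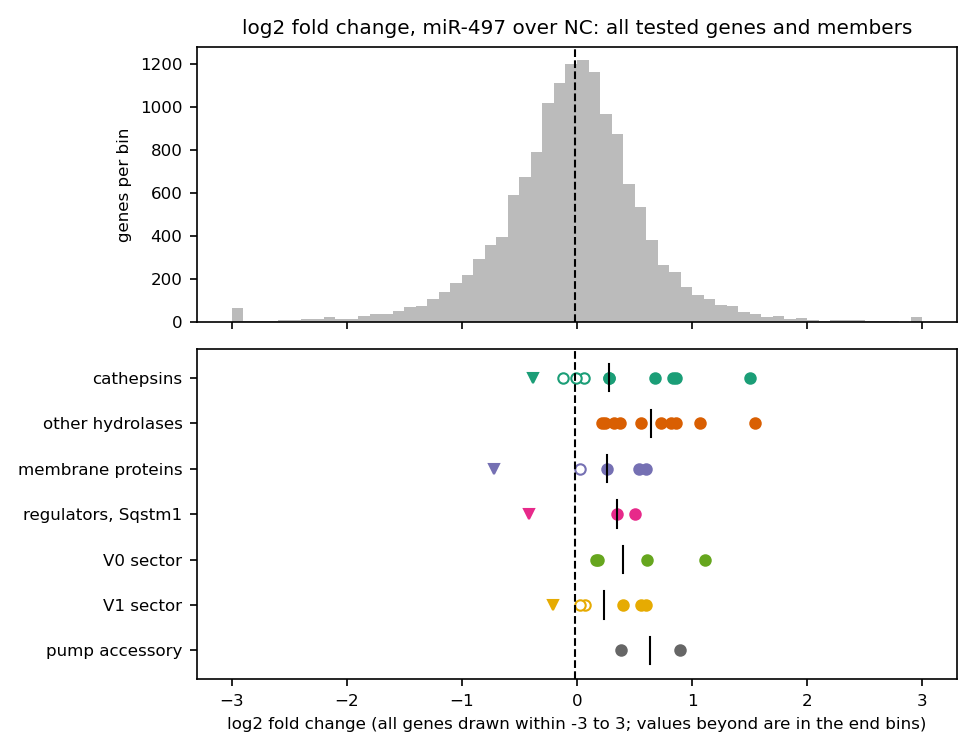
The upper panel counts all 14661 tested genes by log2 fold change in bins, with values beyond the axis placed in the end bins. The lower panel places the 40 tested members by role (filled circles higher, triangles lower, open circles not past the threshold; short black lines are role medians), and the dashed line marks the median of all tested genes at -0.02.

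How the table was counted bears on some members. Of 532 protein-coding genes lying inside an opposite-strand protein-coding gene and in no other, 99.2% were listed at 0 in all libraries, as were 99.5% of 379 inside a same-strand gene, while 19.7% of 20983 genes inside neither were. Counting over whole gene spans without strand, with shared reads left out, gives such zeros; the setting used is not given in the sources used here. Galns, the sulfatase that removes sulfate from keratan sulfate, is a case in point: it was listed at 0 in all 6 libraries. The annotated span of Gm20388 covers Galns entirely, and the other 70 protein-coding genes inside that span were at 0 too, among them 36 on the strand of Gm20388 and 34 on the other. The 0 of Galns is thus not read as a lack of expression. For 10 members over 10% of exon bases lay under another gene, namely Ctsb (12.8%), Hexa (15.4%), Sqstm1 (22.3%), Ctsl (30.4%), Ctsa (39.0%), Atp6v0b (42.6%), Sgsh (44.2%), Ctsd (63.7%), Lamp1 (64.4%) and Galns (all of it). If reads on shared bases were left out, the levels of these members are too low. If whole gene spans were counted, reads in introns would also raise the level per exon base of any member. Neither was tested.

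Levels per length were compared as CPM per kilobase of exon, averaged over all 6 libraries. Sqstm1 led with 539, followed by Psap with 316 and Ctsd with 214. With the same counts divided only by exon bases outside other genes, the leading values were 694 for Sqstm1, 589 for Ctsd, 458 for Lamp1 and 316 for Psap. These values hold only if reads on shared bases were left out of the counts, which is not known. The order below Sqstm1 thus depends on the bases used. Lamp1 (163), Ctsz (159) and Ctsl (157) came next on all exon bases, and in NC libraries these 3 stood at 133 ± 4.93, 143 ± 5.31 and 143 ± 4.55 (SD, n = 3), with Ctsz and Ctsl within their spread. In miR-497 libraries Lamp1 stood at 193 ± 7.94, Ctsb at 182 ± 5.62, Ctsz at 174 ± 6.38 and Ctsl at 172 ± 11.1 (SD, n = 3), so the order below the leading genes differed between groups; Ctsb had 100.2 ± 3.17 with NC. At the lower end of the tested members lay Ctsc with 0.333, Ctsk with 1.49, Ctsf with 1.65 and Tfeb with 1.71. Ctsc was lowest in both groups, but the other three changed order: with NC they stood at 0.771 (Ctsk), 1.18 (Ctsf) and 1.95 (Tfeb), and with miR-497 at 2.22, 2.11 and 1.46.

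**Figure D3:**
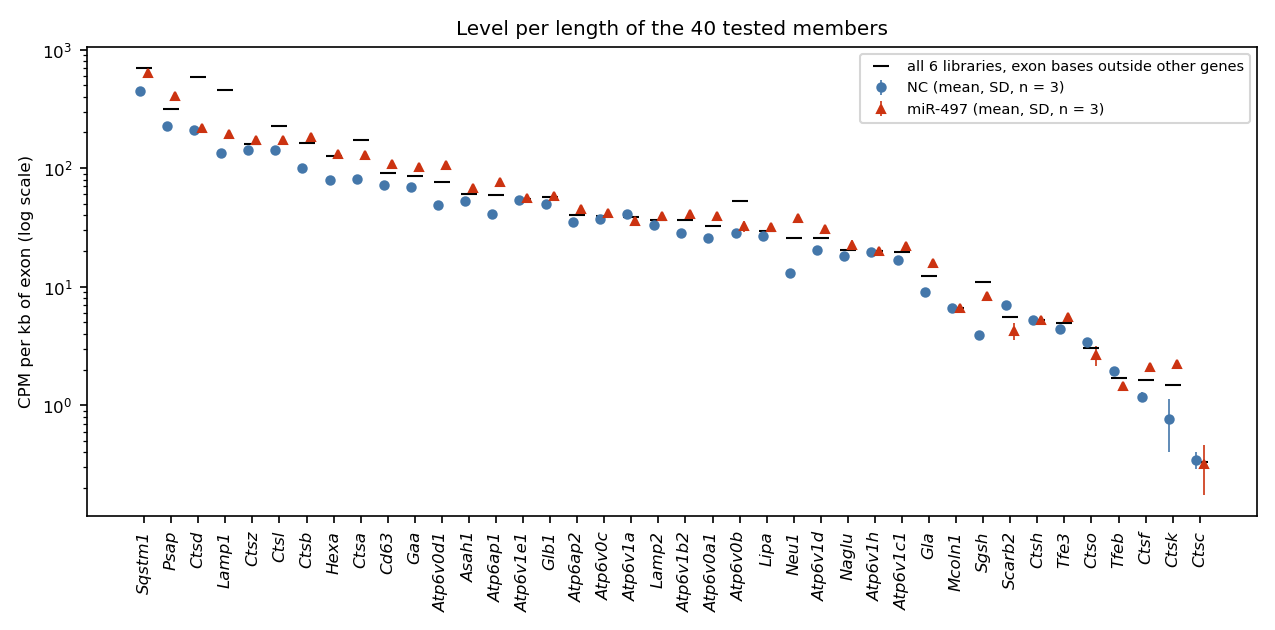
Circles (NC) and triangles (miR-497) give the mean CPM per kilobase of exon of the 40 tested members on a log axis. Bars are SDs over 3 libraries. Dashes give the mean of all 6 libraries with the same counts divided only by exon bases outside other genes. Levels span from Ctsc at 0.333 to Sqstm1 at 539, and the dashes stand well above the symbols for Ctsd and Lamp1.

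Cathepsins, the proteases of the lysosome, were divided. Of 10 tested, 6 rose, 1 fell and 3 did not pass, with a median log2 fold change of 0.28. Ctsb, a cysteine protease with broad specificity (ENSMUSG00000021939), stood at 584, 614 and 619.6 CPM in NC libraries and at 1113, 1064 and 1129 CPM in miR-497 libraries. The groups lay far apart, with a log2 fold change of 0.86 (edgeR adjusted p = 1.6e-09, SE 0.0548). Ctsa, a carboxypeptidase that also holds Neu1 and beta-galactosidase in a protective complex, had 375, 389 and 373 CPM with NC. With miR-497 it had 607, 578 and 634 CPM, a log2 fold change of 0.68 (edgeR adjusted p = 2.5e-08, SE 0.0543).

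Cathepsins of low level were also among those that rose. Ctsk, known as the collagen-cutting protease of osteoclasts, had 1.57, 1.40 and 0.533 CPM with NC and 3.34, 3.37 and 3.35 CPM with miR-497. The third NC library, with 15 counts against 52 and 51, was the lowest, and all miR-497 libraries lay above it and its neighbours. Ctsk thus rose 2.83-fold (edgeR adjusted p = 0.00106, SE 0.329 on the log2 scale); leaving out 1 library at a time gave log2 values between 1.19 and 1.75. Ctsf, a widely expressed cysteine protease, went from 6.64, 5.67 and 5.58 CPM to 10.4, 10.2 and 11.4 CPM, without overlap (log2 fold change 0.84, edgeR adjusted p = 6.2e-05, SE 0.135). Smaller rises were called for the carboxypeptidase Ctsz, from 206 ± 7.65 to 251 ± 9.19 CPM, and for Ctsl, from 925 ± 29.5 to 1119 ± 71.8 CPM (SD, n = 3), with log2 fold changes of 0.28 and 0.27.

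Ctsd, the aspartic protease and the most abundant cathepsin per length, did not pass the test. It had 497, 485 and 494 CPM with NC and 548, 506 and 486 CPM with miR-497, so the groups overlapped, and the log2 fold change of 0.06 had a 95% interval from -0.06 to 0.18 (edgeR adjusted p = 0.376). Ctsh, an aminopeptidase, had 23.7 ± 1.48 and 23.6 ± 0.492 CPM (SD, n = 3), with an interval from -0.18 to 0.17 on the log2 scale. Ctsc, the dipeptidyl peptidase that activates serine proteases of immune cells, had 27 to 84 counts per library and an interval from -0.85 to 0.62, too wide to place it. Ctss, a protease of antigen-presenting cells, was not tested, with 4, 5 and 13 counts for NC and 10, 3 and 2 counts for miR-497.

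The one cathepsin called lower was Ctso, another cysteine protease, with 17.2, 18.6 and 16.8 CPM in NC libraries and 13.6, 10.9 and 16.1 CPM in miR-497 libraries. All 3 miR-497 values were below the NC values, but the third came close, and the log2 fold change was -0.38 (edgeR adjusted p = 0.017, SE 0.123). The call was lost with offsets for GC content and length (edgeR adjusted p = 0.0679) and without NC library 2 (0.0725) or miR-497 library 2 (0.109); over all alternatives the adjusted p ran from 0.00145 to 0.109.

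All 10 tested glycosidases, sulfatases, lipid hydrolases and activators rose, with a median log2 fold change of 0.64 and no overlap between groups for any of them. Neu1 (ENSMUSG00000007038), the sialidase that removes sialic acid from glycoproteins and glycolipids, stood at 50.2, 49.0 and 47.4 CPM with NC and at 139.7, 136 and 153 CPM with miR-497. Its log2 fold change was 1.55, or 2.92-fold (edgeR adjusted p = 6.6e-12, SE 0.0614). Sgsh, a sulfatase of heparan sulfate breakdown, had 18.3, 15.9 and 18.04 CPM with NC and 37.1, 36.1 and 36.4 CPM with miR-497, a 2.10-fold rise (log2 1.07, edgeR adjusted p = 1.1e-08, SE 0.0798).

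Sphingolipid breakdown was represented at several steps by members that rose, while Smpd1, the acid sphingomyelinase outside the set, fell (values below). Psap (ENSMUSG00000004207), the precursor of the saposins that present lipids to hydrolases, went from 589, 629 and 629.9 CPM to 1119.5, 1084 and 1145 CPM. Every miR-497 library was far above every NC library (log2 fold change 0.86, edgeR adjusted p = 1.9e-09, SE 0.0552). Gla, which cleaves terminal galactose from globotriaosylceramide, had 28.96, 28.3 and 30.5 CPM with NC and 51.8, 48.9 and 53.5 CPM with miR-497 (log2 fold change 0.81, edgeR adjusted p = 6.4e-08, SE 0.0704). Hexa, a subunit of the hexosaminidase that acts on the ganglioside GM2, went from 154, 163 and 162 CPM to 269, 258 and 266 CPM (log2 fold change 0.73, edgeR adjusted p = 4.9e-09, SE 0.0508). Asah1, the acid ceramidase, rose less, from 179 ± 5.95 to 231 ± 13.4 CPM (SD, n = 3), by 0.37 on the log2 scale.

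Of the remaining hydrolases, Gaa, which breaks down lysosomal glycogen, rose by 0.56 on the log2 scale, from 333 ± 12.3 to 490.4 ± 12.3 CPM (SD, n = 3). Naglu, which acts in the same heparan sulfate pathway as Sgsh, rose from 47.8 ± 0.855 to 59.8 ± 6.35 CPM, by 0.32, with the third miR-497 library (67.1 CPM) above the other two (both 56.1 CPM). Lipa, the acid lipase for cholesteryl esters and triglycerides, rose by 0.25, from 182 ± 8.12 to 216 ± 7.83 CPM. Glb1, the beta-galactosidase that also marks senescent cells, rose by 0.22, from 151 ± 6.17 to 175 ± 1.5998 CPM. These 5 smaller rises, Asah1 included, had edgeR adjusted p-values from 1.8e-07 to 0.00193.

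Of the 5 membrane proteins, 3 rose, Scarb2 fell and Mcoln1 did not pass. Cd63, a tetraspanin of late endosomes and exosomes, had 269, 269.7 and 256 CPM with NC and 417, 387 and 402 CPM with miR-497, a 1.52-fold rise (log2 0.60, edgeR adjusted p = 7.2e-08, SE 0.0527). Lamp1 and Lamp2, the heavily glycosylated proteins that line the membrane, rose by 0.54 and 0.26 on the log2 scale, from 356 ± 13.2 to 516 ± 21.2 CPM and from 316 ± 12.03 to 379 ± 9.04 CPM (SD, n = 3). Mcoln1, the calcium channel of the lysosomal membrane, had 51.0, 52.3 and 45.1 CPM with NC and 46.0, 52.0 and 53.2 CPM with miR-497. Its groups overlapped, and the 95% interval of the log2 fold change ran from -0.14 to 0.19 (estimate 0.03, edgeR adjusted p = 0.808).

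Scarb2 (ENSMUSG00000029426), also known as LIMP-2, is an abundant protein of the lysosomal membrane and was the only member called lower by at least 1.5-fold. It had 46.3, 43.0 and 42.1 CPM in NC libraries and 27.1, 30.7 and 22.02 CPM in miR-497 libraries. The groups were well apart, although the miR-497 libraries differed among themselves. Its log2 fold change of -0.72 (edgeR adjusted p = 1e-05, SE 0.0974) stayed past the threshold under each of 15 alternatives, between -0.84 and -0.60.

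The transcription factors differed. Tfeb (ENSMUSG00000023990), an activator of lysosomal and autophagy genes, had 11.2, 11.5 and 10.4 CPM with NC and 7.52, 8.56 and 8.76 CPM with miR-497, a log2 fold change of -0.42 (edgeR adjusted p = 0.0092, SE 0.122). Its groups did not overlap. The call was lost with offsets for GC content and length (-0.26, edgeR adjusted p = 0.0818; range over alternatives 0.00816 to 0.136). Tfe3 (ENSMUSG00000000134), its relative, had 37.3, 39.9 and 44.6 CPM with NC and 55.7, 50.6 and 48.5 CPM with miR-497 and rose by 0.35 on the log2 scale (edgeR adjusted p = 0.00164, SE 0.0799). Per length, Tfe3 stood above Tfeb in both groups, with 4.38 ± 0.400 against 1.95 ± 0.0969 CPM per kilobase with NC and 5.57 ± 0.398 against 1.46 ± 0.118 with miR-497 (SD, n = 3).

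Sqstm1 (ENSMUSG00000015837), the receptor p62 that links ubiquitinated cargo to autophagosomes and is itself degraded with it, was the most abundant member. Its 1417, 1524 and 1544 CPM in NC libraries rose to 2119, 2060.4 and 2182 CPM. No libraries overlapped, and the log2 fold change was 0.50 (edgeR adjusted p = 1.9e-06, SE 0.0585).

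The proton pump was measured through 4 subunits of V0, 6 of V1 and 2 partner proteins. All 12 were tested, and 9 rose, 1 fell and 2 did not pass, with a median log2 fold change of 0.39. In V0, the sector that moves protons through the membrane, all 4 rose, but by unequal amounts. Atp6v0d1 (ENSMUSG00000013160), the d subunit that joins the proton ring to the central stalk, had 88.8, 89.3 and 83.0 CPM with NC and 197, 176 and 193 CPM with miR-497. This was a 2.17-fold rise (log2 1.11, edgeR adjusted p = 1.5e-10, SE 0.0577). Atp6v0a1, the a subunit that holds the proton channels, went from 182, 168 and 159 CPM to 259, 245 and 273 CPM (log2 fold change 0.61, edgeR adjusted p = 2.9e-07, SE 0.0599).

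The proteolipids of the rotating ring, Atp6v0b and Atp6v0c, rose by 0.18 and 0.17 on the log2 scale, from 58.4 ± 0.557 to 66.4 ± 7.22 CPM and from 126 ± 7.57 to 141 ± 9.86 CPM (SD, n = 3; edgeR adjusted p = 0.0479 and 0.0321). For Atp6v0c the groups overlapped, since NC library 3 (134 CPM) lay above miR-497 library 2 (131 CPM). Both calls were lost when NC library 1, NC library 2 or miR-497 library 3 was left out, that of Atp6v0b also without NC library 3 and that of Atp6v0c also without miR-497 library 1. Over their alternatives the adjusted p ran from 0.0199 to 0.285 for Atp6v0b and from 0.00634 to 0.170 for Atp6v0c.

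In V1, the sector that splits ATP, 3 of 6 subunits rose, 1 fell and 2 did not pass. Atp6v1d, part of the central rotor, went from 98.7, 92.8 and 90.8 CPM to 142, 136 and 148 CPM, without overlap (log2 fold change 0.60, edgeR adjusted p = 1.5e-07, SE 0.0554). Atp6v1b2, the non-catalytic partner in the ATP-binding head, rose from 149 ± 4.16 to 219 ± 10.8 CPM, and Atp6v1c1, which helps couple the sectors, from 94.1 ± 2.80 to 124 ± 4.17 CPM (SD, n = 3), by 0.55 and 0.40 on the log2 scale. Atp6v1a, the catalytic subunit of that head, was called lower: NC libraries had 229, 252 and 269 CPM and miR-497 libraries 217, 219.5 and 213 CPM. The drop was small, with a log2 fold change of -0.21 (edgeR adjusted p = 0.00784, SE 0.0592), and the call was lost without NC library 3 (0.0822) and with GC and length offsets (0.0946; range over alternatives 0.000891 to 0.186). For the stator subunit Atp6v1e1 and the regulatory subunit Atp6v1h the 95% intervals were -0.04 to 0.17 and -0.08 to 0.13 on the log2 scale.

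Both partner proteins rose. Atp6ap1, an assembly factor of the pump also called Ac45, had 122, 125 and 127 CPM with NC and 236, 222 and 235 CPM with miR-497, a 1.86-fold rise with the groups far apart (log2 0.90, edgeR adjusted p = 4.5e-10, SE 0.0512). Atp6ap2, known as the prorenin receptor, rose by 0.38 on the log2 scale, from 91.6 ± 3.04 to 119 ± 9.93 CPM (SD, n = 3; edgeR adjusted p = 8.6e-05). Summed over sectors, V0 genes held 435 to 448 CPM with NC and 614 to 682 CPM with miR-497, and V1 genes 982 to 1015 and 1096 to 1155 CPM.

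**Figure D4:**
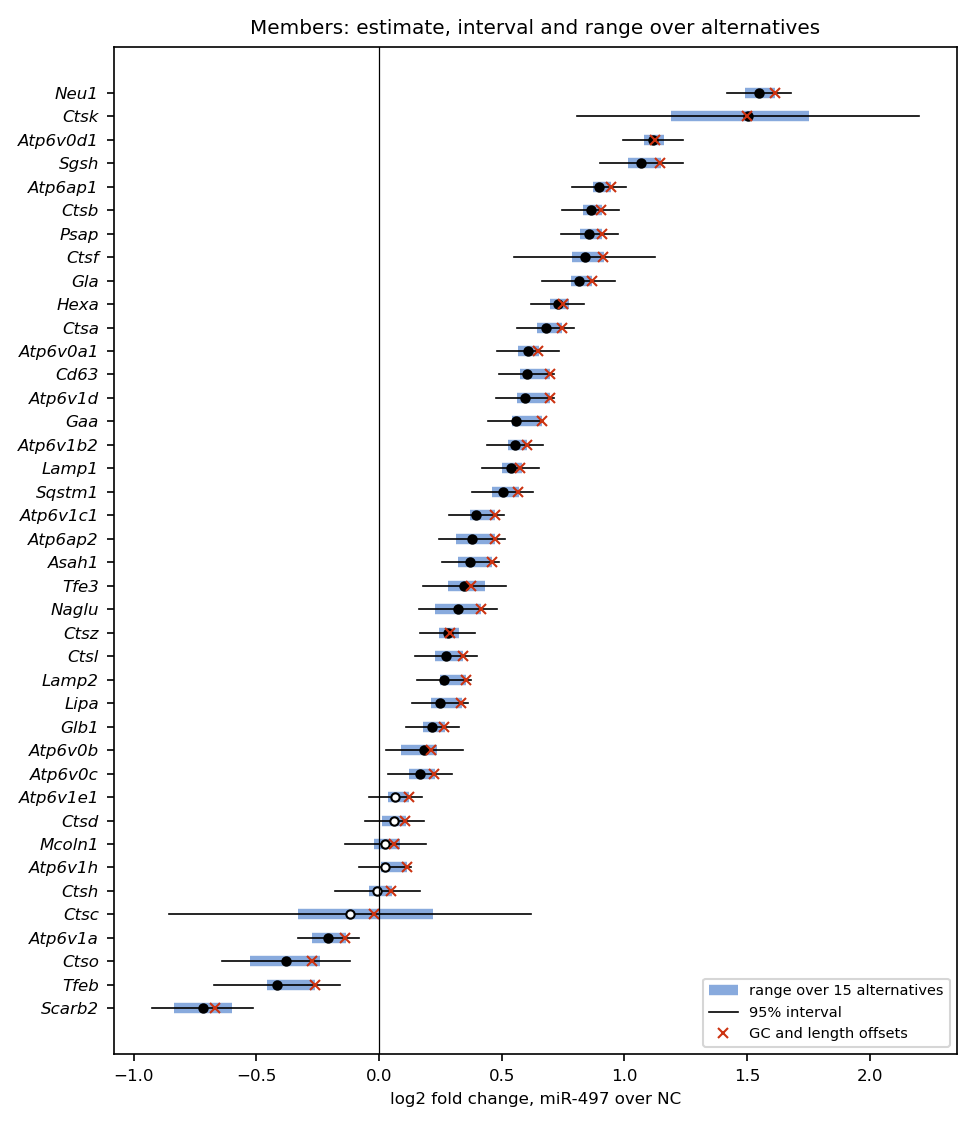
For each tested member the dot gives the log2 fold change (filled where called), the thin line its 95% interval, the thick bar the range over 15 alternative analyses and the cross the value with GC and length offsets. The crosses lie to the right of most dots, and Scarb2 is the only lower member called in every alternative.

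Sites for the mimic were looked up in the longest annotated 3' UTR of each gene. The mature sequences show where the seed, in capitals, lies in each arm of the mouse hairpin (RefSeq, GRCm38.p6; the exact sequence of the mimic is not given in the sources used here).
mmu-miR-497a-5p: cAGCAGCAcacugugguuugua
mmu-miR-497a-3p: cAAACCACacugugguguuag
As 5p sites counted TGCTGCT (7mer-m8; with A after it, 8mer) and GCTGCTA (7mer-A1), as 3p sites GTGGTTT and TGGTTTA. Of the 40 tested members, 8 had a 5p site, and so had 28.1% of 12860 tested genes with a 3' UTR; a 3p site was found in 12 of 40 members and in 24.0% of those genes. Among members called higher 5 of 30 had a 5p site, and among those called lower 3 of 4, namely Scarb2, Tfeb and Atp6v1a. Ctso had no 5p site, and neither had the 6 that did not pass. A 3p site was found in 7 of 30 higher members and 2 of the 6 that did not pass. It was also found in 3 of 4 lower members, namely Scarb2, Atp6v1a and Ctso (an 8mer), so the share in lower members was alike for both arms. The longest 3' UTRs had a median of 880.5 bases in the tested members and 1187 bases in all tested genes with a 3' UTR. By call, the medians were 991.5 bases in the 30 higher members, 2243.5 in the 4 lower and 411 in the 6 that did not pass. All genes called higher had a median of 1241 bases and all genes called lower 1235. Length thus moved with these counts, and its part was not tested. Over all tested genes, 20.1% of those called higher and 40.5% of those called lower had a 5p site. For a 3p site these shares were 24.4% and 24.9%.

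The 5p sites of the lower members are shown with the matched letters in capitals, together with that of Neu1, a member that rose and also holds a match. Each stretch is the transcript strand on GRCm38.
Scarb2 at chr5:92442151-92442180, minus strand, 8mer: gccggtctcagcctcccaagTGCTGCTAtt
Scarb2 at chr5:92443428-92443457, minus strand, 7mer-m8: agatgtctgggtgtagaataTGCTGCTgag
Tfeb at chr17:47791923-47791952, plus strand, 7mer-A1: tgcctctctccttccccttgGCTGCTAccc
Atp6v1a at chr16:44086076-44086105, minus strand, 7mer-m8: tgcatgtctacacagtggacTGCTGCTgaa
Atp6v1a at chr16:44085988-44086017, minus strand, 7mer-m8: gttgggaggtggattagtggTGCTGCTtaa
Neu1 at chr17:34935430-34935459, plus strand, 7mer-m8: cccctagattccatcctggcTGCTGCTgtt
Scarb2 held the only 5p 8mer among the tested members. The other risen members with a 5p site were Ctsl, Sqstm1, Atp6v1b2 and Atp6v1c1. In the shortest annotated 3' UTRs the sites of Tfeb, Ctsl and Sqstm1 were not included, which left 5 members with a site, 2 of them among the 4 lower. A match describes the letters only; binding was not measured.

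Promoters, taken as 250 bases before to 50 after the start in RefSeq's GRCm38.p6 table, were matched for 35 of the 42 members, with 42 promoters in all. CACGTG, the same on both strands, was present in 14 promoters (33.3%), against 7.15% of 32851 promoters in the table and 9.64% of 13869 promoters of tested genes. The longer TCACGTG on either strand, which contains the first motif, was in 12 (28.6%), against 3.77% and 5.69%. Examples are shown with CACGTG in capitals, of members that rose (Ctsa, Gla, Sgsh, Atp6v0d1), that did not pass (Ctsd, Mcoln1) and that fell (Atp6v1a). Where a promoter held 2 copies (Ctsa, Gla, Ctsd, Mcoln1), 1 is shown.
Ctsa at chr2:164833749-164833778, plus strand: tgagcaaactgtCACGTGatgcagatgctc
Gla at chrX:134601182-134601211, minus strand: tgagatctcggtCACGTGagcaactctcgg
Sgsh at chr11:119355522-119355551, minus strand: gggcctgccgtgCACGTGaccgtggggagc
Atp6v0d1 at chr8:105566050-105566079, minus strand: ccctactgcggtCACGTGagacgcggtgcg
Ctsd at chr7:142387908-142387937, minus strand: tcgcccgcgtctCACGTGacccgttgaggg
Mcoln1 (1 of its copies) at chr8:3500436-3500465, plus strand: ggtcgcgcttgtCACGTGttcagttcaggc
Atp6v1a at chr16:44139373-44139402, minus strand: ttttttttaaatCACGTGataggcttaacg
Calls were counted for members with and without the motif, with no test. Of 14 tested members with CACGTG, 11 rose, 1 fell and 2 did not pass, with a median log2 fold change of 0.43. Of 20 with a matched promoter that lacked these letters in this window, 15 rose, 3 fell and 2 did not pass, with a median of 0.36. Neu1 and Psap were among the latter, and Lamp1 had 4 copies.

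The wider lysosome was described with lists of other genes. Of 25 tested further hydrolases and activators, 16 were called higher and 6 lower, with a median log2 fold change of 0.41. The largest changes went both ways. Manba, which cleaves mannose from glycoproteins, rose from 38.3 ± 1.28 to 84.2 ± 5.33 CPM, and Npc2, which hands cholesterol to the membrane, from 72.3 ± 3.70 to 151 ± 6.74 CPM, by 1.14 and 1.06 on the log2 scale. Pla2g15, a phospholipase, fell from 45.0 ± 1.24 to 19.4 ± 0.625 CPM, and Smpd1, the acid sphingomyelinase, from 38.0 ± 4.54 to 17.9 ± 2.33 CPM (SD, n = 3), with log2 fold changes of -1.21 and -1.09. The 4 had edgeR adjusted p-values from 2.6e-10 to 1.8e-07.

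Other membrane proteins moved less as a list, with 5 of 14 tested called higher, 1 lower and a median log2 fold change of 0.15; the largest was Cd68, from 8.25 ± 0.197 to 17.5 ± 2.39 CPM (log2 fold change 1.08; SD, n = 3, edgeR adjusted p = 9.7e-07). Of 7 tested further pump subunits, 2 were higher and 2 lower, with a median of 0.01, so the 12 pump genes of the set do not stand for every subunit. Among 12 genes of enzyme sorting, such as the mannose phosphate receptors, 5 were higher and 3 lower, with a median of 0.12. Of 16 genes of lysosomal signalling, 8 were higher and 5 lower (median 0.29), and none was called at 2-fold or more. Mitf, a relative of Tfeb, came closest and is named after its values were seen, with 5.15 ± 0.813 CPM in NC and 10.3 ± 0.946 CPM in miR-497 libraries (SD, n = 3). Of 15 tested autophagy genes, 11 were higher and 1 lower (median 0.30). The largest rise was in Gabarap, which builds autophagosome membranes, from 106 ± 3.43 to 276 ± 15.3 CPM (SD, n = 3). Its log2 fold change was 1.38 (edgeR adjusted p = 8.2e-12). Map1lc3b, the listed autophagy gene left untested, was at 0 in every library, and the cause of that 0 was not tested. Of 3 tested cystatins, which inhibit cathepsins, Cstb and Cst6 were higher and Cst3 lower (median 0.63). Cst3, the most abundant of them, fell from 374 ± 7.67 to 269 ± 15.8 CPM (SD, n = 3), and the summed level of all 4 listed cystatins went from 422 to 431 CPM with NC to 331 to 368 CPM with miR-497, 0.826 times the NC level; these 3 are named after their values were seen. All these shares are to be read beside the 23.8% higher and 26.0% lower over all tested genes.

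**Figure D5:**
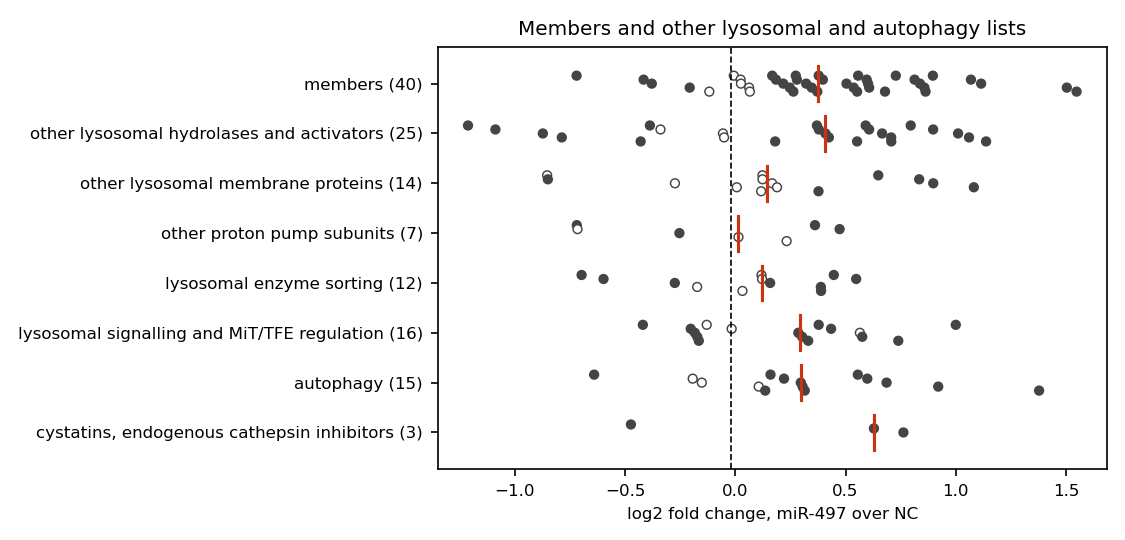
Dots are log2 fold changes (miR-497 over NC) of the tested members and of the tested genes of 7 other lists, with the number of genes in brackets; filled dots were called, open dots were not, red lines are list medians and the dashed line is the median of all tested genes. The members and the further hydrolases have medians of 0.37 and 0.41, and the further pump subunits one of 0.01.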

How the data were processed

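The authors deposited 1 table of unnormalized counts, a whole number for each gene in each of 6 libraries prepared from poly(A)-enriched RNA. Per the submitters' processing notes, STAR 2.5.4b, featureCounts, Subread 1.6.1, edgeR 3.32.1 and build GRCm38 were used; the annotation release, strand setting and counted feature are not given in the sources used here. Symbols, exon lengths and 3' UTRs came from GENCODE M21 (GRCm38), which matched 55141 of 55401 identifiers. Counts were filtered with filterByExpr (minimum count 10, minimum total 15), scaled by TMM and tested 2-sided with edgeR 4.0.16 (R 4.3.3), group as the only term, with Benjamini-Hochberg adjustment over all 14661 genes. SE is the log2 fold change divided by the square root of F. No library pair within a group matched within sampling noise (chi-square per degree of freedom at least 8.19). Scripts were tested on simulated data.

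Members and lists were chosen with earlier results of these data known. Per-library values are given for members changed at least 1.5-fold, the largest change in each role, the 3 highest per length, and Tfeb, Tfe3, Mcoln1, Sqstm1 and Ctss; Ctso and Atp6v1a were added after their values were seen. From the other lysosomal, autophagy and cystatin lists, genes called at 2-fold or more are named, at most 4 a list. This rule was not applied to the cell type marker and interferon-stimulated lists. Alternatives were other scalings (DESeq2 size factors, upper quartile), no filter or a mean count of 50, DESeq2 1.42.0, limma 3.58.1 voom, a replicate block, GC and length offsets, and each library left out.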

Additional observations from a re-analysis of the deposited data

How the results depend on the processing

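Under 15 alternatives, 571 of 600 pairs of tested member and alternative kept direction and side of the threshold, 18 lost the call and 11, all of members that did not pass, changed sign. Counts over all genes stayed within 1.5 times their values. The members called higher numbered 28 to 30 and those called lower 3 to 4 when single libraries were left out, while all genes gave 3057 to 3363 higher and 3351 to 3594 lower. With GC and length offsets the members called lower went from 4 to 1 (Scarb2), and with offsets and the replicate block to 2 (Scarb2 and Ctso), while 30 were higher under both; the cause was not tested. The count of members with a 5p site went from 8 to 5 with the shortest 3' UTR, which holds fewer bases.

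The replicate block alone gave 28 higher and 4 lower members; Atp6v0b and Atp6v0c lost their calls (edgeR adjusted p = 0.0698 and 0.0560). Same-numbered libraries deviated from their group means with correlations across genes of -0.119, -0.0351 and -0.133; the labels do not say whether a number marks libraries handled together, and the numbers were not treated as pairs.

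For Ctsh the log2 fold change of -0.01 changed sign, to 0.0089 (DESeq2 size factors), 0.0397 (upper quartile), 0.0026 (mean count of 50), 0.0087 (DESeq2), 0.0465 (offsets), 0.0481 (offsets and block) and, with single libraries left out, ranged from -0.0424 to 0.0532. Left-out libraries gave -0.0214 to 0.0863 for Mcoln1, negative without NC library 3 or miR-497 library 3, and -0.331 to 0.221 for Ctsc, positive without miR-497 library 3; the cause was not tested. Depth limits Ctsc, Ctsk and Ctss, with at most 107 counts per library.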
